A study of Homo sapiens with 4 samples.

Results

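Transcript levels of ANXA2, of its binding partner S100A10 and of 8 further annexins were followed in LNCaP-derived human prostate cancer cells in which methyl-CpG targeted transcriptional activation (MeTA) can be switched on. LNCaP is an established androgen-sensitive prostate cancer cell line. ANXA2 was chosen because its brighter probe had one of the largest increases with tetracycline in both cell lines, and the other genes were chosen by name as annexins or as its partner, with the results for the whole series known. All probes whose RefSeq transcript maps to one of the 10 genes were taken, which gave 12 of 34127 non-control probes and 10 of the 19483 genes with a named probe. Both cell lines, TR9-MeTA14 and TR15-MeTA5, carry the Tet repressor and a stably transfected, FLAG-tagged fusion of an NFκB activation domain with a methyl-CpG-binding domain, NFκB (AD)-MBD, whose expression tetracycline releases. There were 4 arrays, namely TR9-MeTA14 -Tet, TR9-MeTA14 +Tet, TR15-MeTA5 -Tet and TR15-MeTA5 +Tet, where +Tet stands for 4 days of tetracycline, and each condition had 1 array. Both -Tet cultures also carry the construct, each is a single transfected line, and parental cells given tetracycline were not analysed here, so that an effect of the antibiotic and one of the fusion protein cannot be told apart.

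Annexins are calcium-dependent proteins that bind acidic phospholipids and so attach to membranes, where they take part in membrane trafficking, membrane repair and signaling. ANXA2 forms a complex with S100A10 (p11), a member of the S100 family that has lost calcium sensitivity, and this complex on the cell surface is known as a docking site for plasminogen and its activator. ANXA1 is induced by glucocorticoids and limits inflammation through formyl peptide receptors, and loss of ANXA1 and ANXA2 has long been described in prostate cancer.

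Because the fusion protein is built to bind methylated CG dinucleotides, the sequence before the transcription start of the members is shown first. The 250 bases upstream of the start were read from RefSeq promoter windows on GRCh38.p14, in which all 10 genes had at least 1 window, and CG dinucleotides, which read the same on both strands, are in capitals. The first 3 windows belong to the genes that were higher with tetracycline in both cell lines, ANXA3 was not measured above background on any array, and ANXA5 was measured on all of them.
ANXA2: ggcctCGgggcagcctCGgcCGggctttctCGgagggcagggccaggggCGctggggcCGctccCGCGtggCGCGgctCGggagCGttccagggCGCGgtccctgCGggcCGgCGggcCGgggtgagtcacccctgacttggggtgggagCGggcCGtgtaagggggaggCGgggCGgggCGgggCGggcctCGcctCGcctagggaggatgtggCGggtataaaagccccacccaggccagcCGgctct
S100A10: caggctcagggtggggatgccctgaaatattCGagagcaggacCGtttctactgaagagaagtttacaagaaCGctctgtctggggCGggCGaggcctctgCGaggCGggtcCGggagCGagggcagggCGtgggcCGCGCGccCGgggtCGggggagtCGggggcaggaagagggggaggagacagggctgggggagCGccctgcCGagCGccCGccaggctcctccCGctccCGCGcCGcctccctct
ANXA1: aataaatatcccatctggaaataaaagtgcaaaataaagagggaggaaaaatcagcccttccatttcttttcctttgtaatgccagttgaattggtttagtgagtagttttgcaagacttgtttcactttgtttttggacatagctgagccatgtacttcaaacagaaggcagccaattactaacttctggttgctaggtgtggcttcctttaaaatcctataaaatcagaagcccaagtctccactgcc
ANXA3: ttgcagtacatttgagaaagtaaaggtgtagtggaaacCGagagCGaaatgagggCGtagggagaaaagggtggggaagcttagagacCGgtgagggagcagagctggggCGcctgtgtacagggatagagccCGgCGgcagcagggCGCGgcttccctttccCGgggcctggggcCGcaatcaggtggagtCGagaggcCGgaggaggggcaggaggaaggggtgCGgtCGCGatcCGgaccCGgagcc
ANXA5: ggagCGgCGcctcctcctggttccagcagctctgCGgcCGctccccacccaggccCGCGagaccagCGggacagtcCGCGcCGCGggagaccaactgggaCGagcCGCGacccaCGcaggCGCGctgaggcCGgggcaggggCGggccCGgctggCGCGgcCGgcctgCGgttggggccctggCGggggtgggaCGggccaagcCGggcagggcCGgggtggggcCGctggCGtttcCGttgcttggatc
The ANXA2 window lies on the minus strand at chr15:60397987-60398236 and holds 28 CG dinucleotides. At least this many were found in 15.9% of all 35116 promoter windows, whose median was 11. The S100A10 window (minus strand, chr1:151993860-151994109) holds 24, a number reached by 23.7% of windows. The ANXA1 window (plus strand, chr9:73151615-73151864) holds 0, whereas 93.9% of all windows hold at least 1 CG. ANXA3 (plus strand, chr4:78551520-78551769) has 18 and ANXA5 (minus strand, chr4:121696981-121697230) has 31. The windows of the remaining annexins ranged from 4 in ANXA9 to 36 in the first of 2 windows of ANXA4. The genes that were higher with tetracycline thus had windows with 0, 24 and 28, and windows with more CG dinucleotides belonged to ANXA4 and ANXA5, which were not higher. These are counts of letters, and DNA methylation of these genes was not analysed here.

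**Figure D1:**
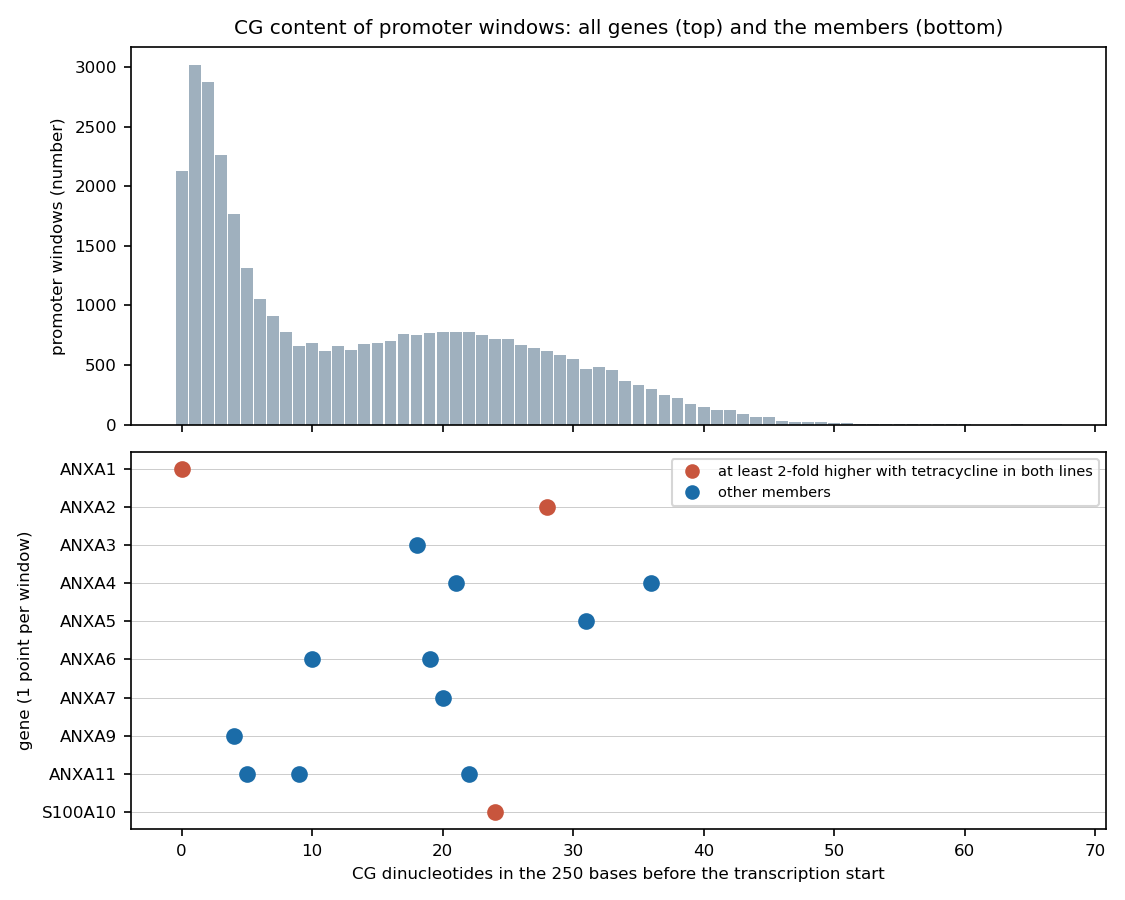
Number of CG dinucleotides in the 250 bases before the transcription start, for all 35116 RefSeq promoter windows (top, bars give the number of windows) and for each window of the 10 genes (bottom, 1 point per window, red for genes at least 2-fold higher with tetracycline in both lines). ANXA1, with 0, and ANXA2, with 28, are both red, and ANXA5, with 31, is blue.

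Each value below is the processed signal, the background-subtracted brightness of a spot in arbitrary units. For comparisons between arrays the signals were divided by the 75th percentile of each array, which was 617, 777, 367 and 542 on TR9-MeTA14 -Tet, TR9-MeTA14 +Tet, TR15-MeTA5 -Tet and TR15-MeTA5 +Tet, the order used throughout. Between 20560 and 24217 probes per array were well above background by the scanner software's own flag, and none was saturated. When only 1 of 2 arrays measured a probe well above background, the dim side was set to the lowest signal that counted as well above background there, between 13.9 and 19.2, or to the probe's own signal if higher, and the fold change is given as "at least". Replicate spots of a probe within an array gave an SD of 0.0873 for a log2 ratio of single spots, which leaves out the spread between cultures. Within a cell line a change with tetracycline has no replicate check, since each condition was measured once, and tetracycline was not tested across the cell lines, since that contrast chose ANXA2. The luminal prostate markers KLK3, KRT8 and KRT18 were well above background on all 4 arrays, and the basal markers KRT5, KRT14 and TP63 were on none, as is known of LNCaP.

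ANXA2 was not measured above background in either cell line without tetracycline, and was far above it in both cell lines with tetracycline. The brighter of its probes, A_23_P146644, had processed signals of 8.25 and 18415 in TR9-MeTA14 cells and of 14.7 and 8271 in TR15-MeTA5 cells, without and with tetracycline, respectively. The scanner software's error for the +Tet spots was 1841 and 827. Both +Tet arrays were therefore far above both -Tet arrays, which were at background. The increase was at least 946-fold in TR9-MeTA14 and at least 363-fold in TR15-MeTA5, or at least 9.89 and 8.50 on the log2 scale, and since this increase chose the gene it is given as a description. Without a bound, with the -Tet signals at background as denominators, the ratios were 1773 and 379.

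The other ANXA2 probe, A_32_P148345, was dimmer and moved the same way. Its signals were 3.20 and 180 in TR9-MeTA14 and 3.15 and 59.2 in TR15-MeTA5, again well above background on the +Tet arrays alone. The increase was at least 9.22-fold and at least 2.60-fold. Both probes are paired with the same RefSeq transcript, NM_001002857, and the ratios without a bound were 44.6 and 12.7 for the dimmer one. How far the background limits the dimmer probe was not tested. Normexp background correction together with quantile normalization brought its change in TR15-MeTA5 to 0.75 on the log2 scale, under 2-fold.

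Probes paired with processed pseudogenes of ANXA2, near-identical copies of its coding sequence, were also brighter with tetracycline, 2 of 2 by at least 2-fold in TR9-MeTA14 and 1 of 2 in TR15-MeTA5. The ANXA2P1 probe gave 3.27 and 2376 in TR9-MeTA14 and 3.22 and 938 in TR15-MeTA5, at least 122-fold and at least 41.1-fold higher with tetracycline. The ANXA2P3 probe gave 21.8 and 99.5 in TR9-MeTA14, where it was measured on both arrays and 3.63-fold higher, and 3.31 and 29.6 in TR15-MeTA5, at least 1.30-fold higher. With normexp and quantile normalization 1 of 2 passed 2-fold in each line. Signal from ANXA2 itself on these probes, or from the pseudogenes on the ANXA2 probes, cannot be told apart here, because the probe sequences were not used.

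S100A10, the partner that links ANXA2 to membrane proteins and to plasminogen, was off and on in the same arrays as ANXA2. Its probe, A_23_P137984, had signals of 7.98 and 415 in TR9-MeTA14 and of 13.9 and 262 in TR15-MeTA5. Both -Tet values were not well above background, and both +Tet values were. The increase was at least 21.3-fold in TR9-MeTA14 and at least 11.5-fold in TR15-MeTA5, or at least 4.42 and 3.52 on the log2 scale. In bulk RNA, more transcript per cell and more cells with the transcript cannot be told apart.

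ANXA1, the glucocorticoid-induced annexin, was also higher with tetracycline in both cell lines, but its starting level differed. Its probe, A_23_P94501, gave 14.9 and 10312 in TR9-MeTA14, where the first value was not well above background, and 62.3 and 1040 in TR15-MeTA5, where both values were. The increase was at least 530-fold in TR9-MeTA14 and 11.3-fold in TR15-MeTA5. The log2 change was thus at least 5.55 larger in TR9-MeTA14, a difference that was not tested, since 4 arrays leave no residual degree of freedom for it. Without tetracycline the ANXA1 signal was the higher one in TR15-MeTA5, and with tetracycline it was the higher one in TR9-MeTA14.

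**Figure D2:**
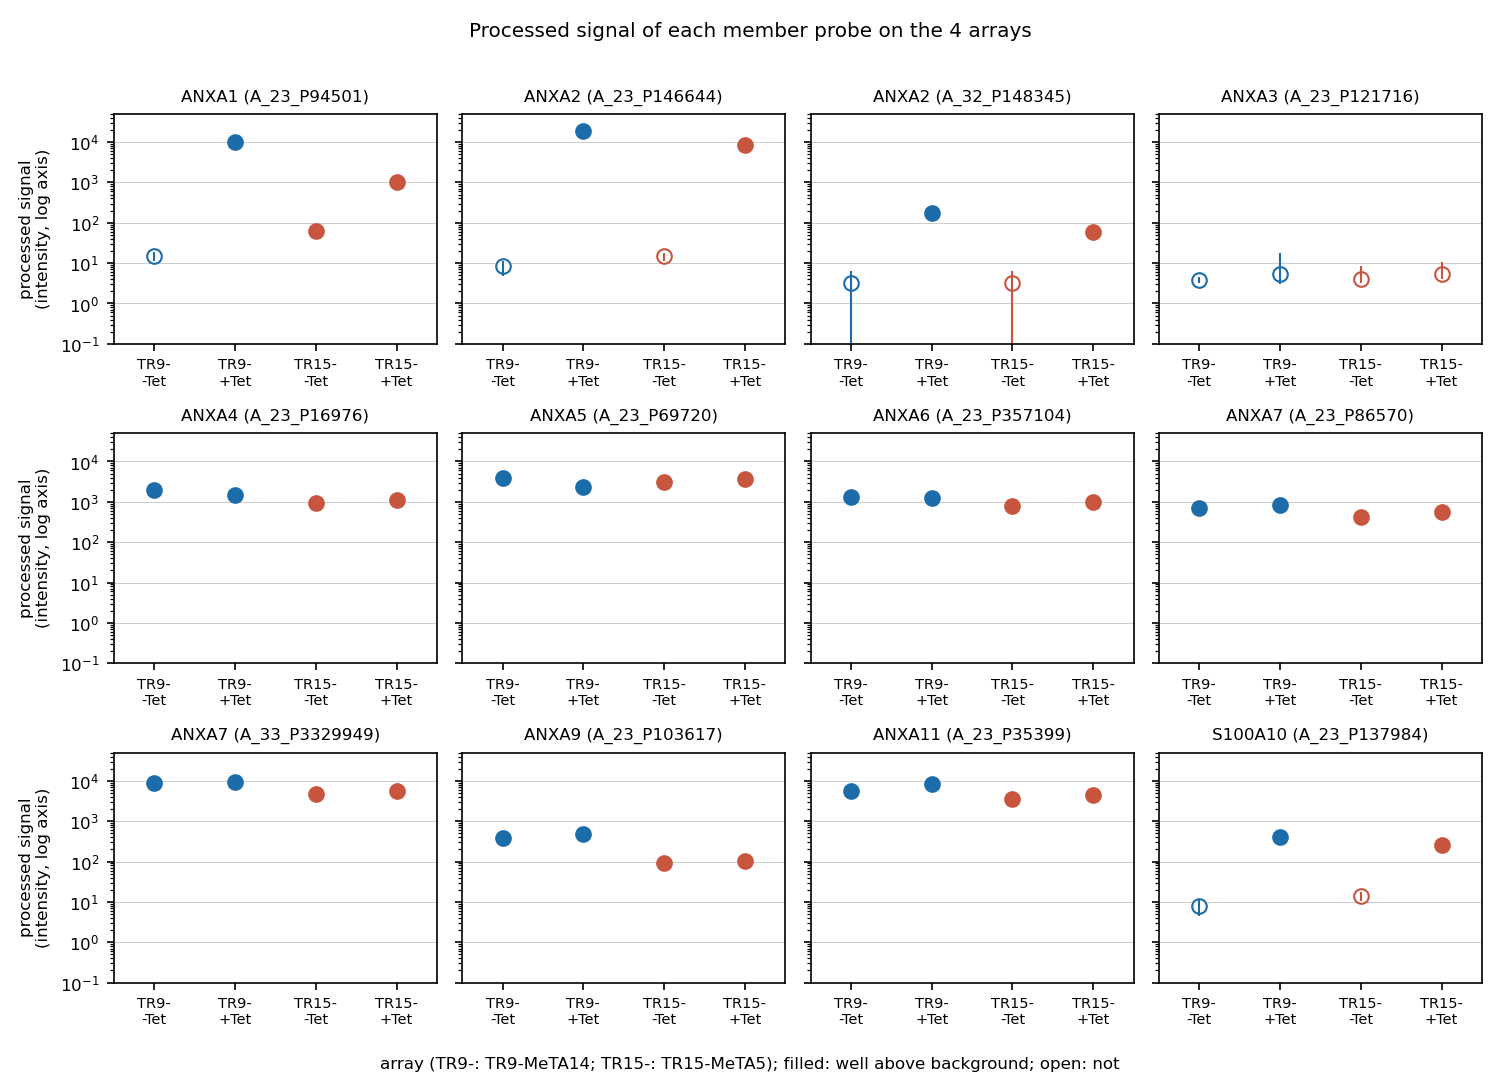
Processed signal (intensity, log axis) of each of the 12 probes on the 4 arrays, blue for TR9-MeTA14 and red for TR15-MeTA5. Filled points are well above background and open points are not; bars are the scanner software's error of the spot or, for ANXA3 and ANXA9 with 10 spots each, the range of the spots, and are clipped at the lower edge of the axis. ANXA1, both ANXA2 probes and S100A10 stand high on the +Tet arrays, and the probes of ANXA4, ANXA5, ANXA6, ANXA7, ANXA9 and ANXA11 differ less between the arrays of a line; levels of different probes are not comparable.

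ANXA4, ANXA5, ANXA6, ANXA7, ANXA9 and ANXA11 were well above background on all 4 arrays, by 7 probes in all. Of these, 1 (ANXA5) changed by 2-fold or more with tetracycline in TR9-MeTA14, and 0 did in TR15-MeTA5. ANXA5, which binds phosphatidylserine and is widely used to stain apoptotic cells, had signals of 3791, 2273, 3026 and 3743. After scaling it was 2.10-fold lower with tetracycline in TR9-MeTA14 and 1.20-fold lower in TR15-MeTA5. ANXA4, an annexin of epithelial membranes, had signals of 1948, 1448, 936 and 1135 and was 1.69-fold and 1.22-fold lower. In TR9-MeTA14 it was the nearest member outside the 2-fold cut-off, at -0.76 on the log2 scale. ANXA5 was the nearest inside it, at -1.07.

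ANXA6, the largest annexin with a duplicated core, had signals of 1293, 1277, 770 and 1014, and its log2 changes were -0.35 in TR9-MeTA14 and -0.17 in TR15-MeTA5. ANXA7, known as synexin, was read by 2 probes with log2 changes of the same sign. A_23_P86570 gave 720, 842, 422 and 574, with log2 changes of -0.11 and -0.12, and A_33_P3329949 gave 8924, 9269, 4765 and 5543, with -0.28 and -0.35. For ANXA7 the arrays of a line therefore differed with tetracycline by at most 1.27-fold by either probe.

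ANXA9, an atypical annexin that lacks the usual calcium-binding sites, was read by 10 spots of 1 probe, A_23_P103617, so that its measurement error is the best known here. Its mean signals were 374, 475, 92.3 and 104, with spots between 353 and 393 on TR9-MeTA14 -Tet and between 87.9 and 96.9 on TR15-MeTA5 -Tet. Its log2 change was 0.01 in TR9-MeTA14 and -0.40 in TR15-MeTA5. The SD of 0.0873 is for single spots and is not the error of these means of 10 spots. ANXA11, which ties RNA granules to lysosomes, had signals of 5605, 8220, 3651 and 4464. Its log2 change was 0.22 in TR9-MeTA14 and -0.27 in TR15-MeTA5, opposite directions in the cell lines.

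Over these 7 probes the median log2 change was -0.28 in TR9-MeTA14 and -0.27 in TR15-MeTA5, beside -0.15 and -0.19 over all 19298 probes well above background on all 4 arrays. In TR9-MeTA14 the direction was the same in all 8 other settings for ANXA4, ANXA5, ANXA6, ANXA11 and A_33_P3329949 of ANXA7, and ANXA5 was at least 2-fold lower in 7 of 8. For these members, measured on both arrays, plain ratios and the series table repeat the main value and add no check. Scaling on 10 spike-in probes moved the median of the 19298 probes in TR15-MeTA5 to 0.20, and ANXA4, ANXA5, ANXA6, both ANXA7 probes and ANXA11 were then higher instead of lower in that line. In TR9-MeTA14 the same scaling turned A_23_P86570 of ANXA7 to 0.01. ANXA9, at 0.01 in the main setting there, lay between -0.02 and 0.13 and kept its sign in 6 of 8 other settings.

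ANXA3, which promotes blood vessel growth, was read by 1 probe with 10 spots and was not well above background on any array. Its mean signals were 3.77, 5.29, 4.10 and 5.37 over the spots kept, which reached at most 17.7. One spot, left out as an outlier on both +Tet arrays, was well above background there, with 40.6 in TR9-MeTA14 and 36.1 in TR15-MeTA5, and the other 9 spots were not. No fold change can be given for it. Of 2 other annexins with a probe, ANXA10 was likewise not above background on any array, and ANXA13 was above it on TR9-MeTA14 +Tet alone, with signals of 10.9, 24.8, 12.7 and 16.2.

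Of the 11 member probes with a fold change, 4 (ANXA1, both of ANXA2 and S100A10) were higher by 2-fold or more on the +Tet array of TR9-MeTA14, where 15.2% of all 24248 probes compared were, and 1 (ANXA5) was at least 2-fold lower, where 15.1% of all probes were. In TR15-MeTA5, the 4 probes were again at least 2-fold higher, beside 8.5% of 22341 probes, and 0 were lower, beside 2.67%. The probes higher in both lines were thus 4 of 11, where 7.01% of 21657 probes compared in both were, and 0 of 11 were lower in both, beside 0.891%. Well above background with tetracycline and not without it, in both lines, were 3 of 12 member probes (both of ANXA2 and that of S100A10), beside 2.62% of all 34127 probes. Nothing is read from these shares, since the increase of ANXA2 chose the group and the other genes were picked with their values known. In TR15-MeTA5 the member nearest to the cut-off inside it was the dimmer ANXA2 probe, with a log2 bound of 1.38, and the nearest outside it was ANXA9, at -0.40.

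**Figure D3:**
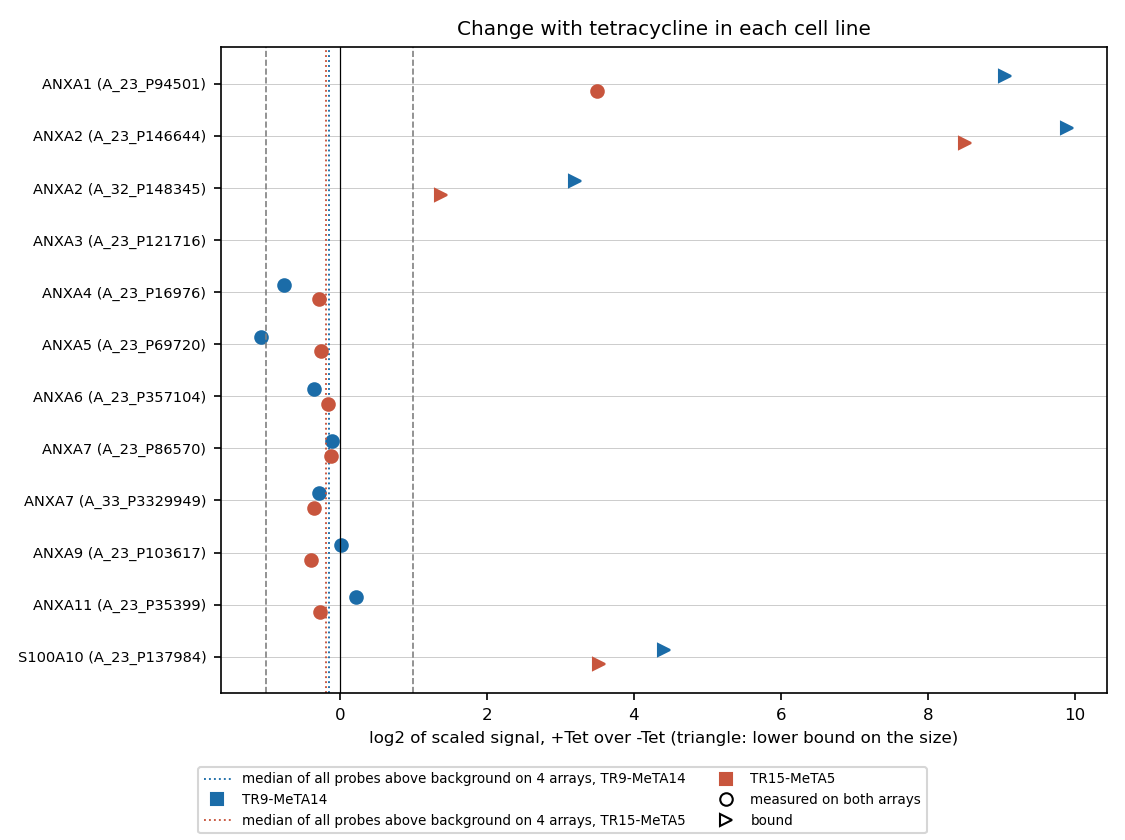
Log2 change of the scaled signal with tetracycline for each of the 12 probes in TR9-MeTA14 (blue) and TR15-MeTA5 (red). Circles were measured on both arrays, triangles are bounds on the size, dashed lines mark 2-fold and dotted lines the medians of -0.15 and -0.19 over all probes well above background on all 4 arrays. ANXA1, ANXA2 and S100A10 lie to the right of the 2-fold line in both lines, ANXA5 lies just beyond 2-fold lower in TR9-MeTA14, and ANXA3 has no value.

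The cell lines were then compared within each condition, a contrast that was not used to choose the members. Without tetracycline, 8 member probes could be compared. ANXA1 was at least 6.78-fold higher in TR15-MeTA5 than in TR9-MeTA14, where 8.44% of 21650 probes were at least 2-fold higher. Its log2 difference of at least 2.76 lay between 1.01 and 2.82 in 8 other settings, lowest with normexp and quantile normalization. ANXA9 was 2.41-fold lower in TR15-MeTA5, where 5.49% were at least 2-fold lower. The other 6 probes differed by 1.34-fold or less. With tetracycline, 11 probes could be compared. ANXA1 was then 6.92-fold lower in TR15-MeTA5, ANXA9 was 3.20-fold lower and the dimmer ANXA2 probe 2.12-fold lower, beside 10.1% of 22984 probes at least 2-fold lower. The brighter ANXA2 probe was 1.55-fold lower and S100A10 1.11-fold lower in TR15-MeTA5. ANXA5 was 2.36-fold higher in TR15-MeTA5, beside 14.3% of all probes. Spike-in scaling shifted the median of all probes well above background to -0.90 without and -0.66 with tetracycline, and ANXA5 was then lower in TR15-MeTA5 without tetracycline, at -0.61, and higher with it, at 0.48, while ANXA9 and the order of ANXA1 kept their direction.

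**Figure D4:**
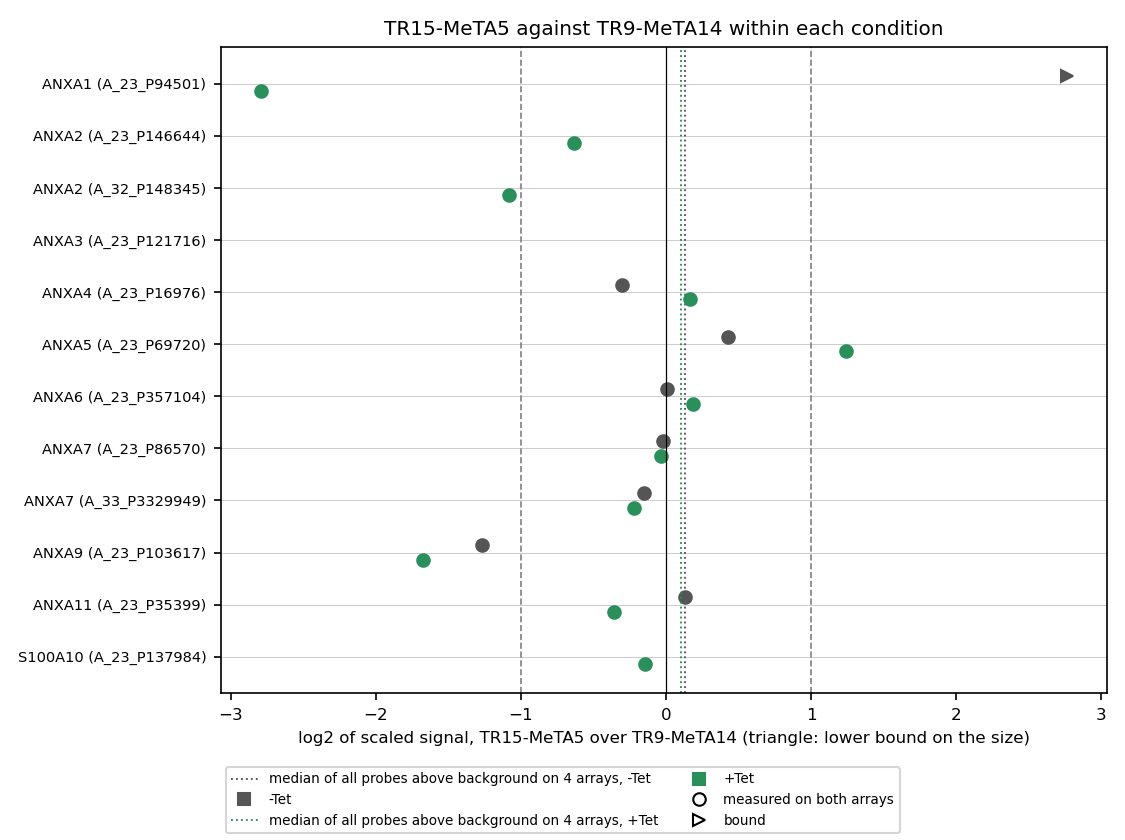
Log2 difference of the scaled signal between TR15-MeTA5 and TR9-MeTA14 without tetracycline (grey) and with it (green), for each of the 12 probes. The triangle is a bound, dashed lines mark 2-fold and dotted lines the medians over all probes well above background on all 4 arrays. ANXA1 lies at 2.76 without tetracycline and at -2.79 with it, and ANXA9 lies left of the 2-fold line in both conditions.

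With the conditions of a line taken as its replicates and tetracycline as a term, limma called 0 of 22808 probes between the cell lines at an adjusted p below 0.05, or 0%, although 3657 probes had an unadjusted p below that value. The fit has 1 residual degree of freedom. ANXA9 was lower in TR15-MeTA5 in 2 of 2 conditions, with a log2 difference of -1.47 (standard error 0.28, limma adjusted p = 0.250), and was the only one of 11 member probes tested with an unadjusted p below 0.05, at 0.0053. ANXA5 was higher in 2 of 2 conditions by 0.83 (standard error 0.32, limma adjusted p = 0.316). Neither passed the correction. For ANXA1, whose order turned with tetracycline, the fitted difference was 0.01 with a standard error of 1.38. The fitted differences of ANXA1, ANXA2 and S100A10 average in -Tet signals that were not well above background, those of ANXA2 and S100A10 in both lines.

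The genes whose changes were nearest to those of the brighter ANXA2 probe, among 509 other genes well above background in both lines with tetracycline and in neither without it, were HSPA1A, ANKRD35, CLIC3, NEFH and TENT5B. Likeness was the distance between the pairs of log2 changes, over 2 cell lines and with bounds at their value, so that the order is a description. HSPA1A, an inducible heat shock protein, had signals of 3.54 and 27731 in TR9-MeTA14 and of 3.51 and 7185 in TR15-MeTA5, and lay 0.62 log2 units from ANXA2. The fifth, TENT5B, lay 2.77 units away.

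Genes that work with the members were described from lists, each gene by its brightest probe. Of all genes compared, 16.8% were at least 2-fold higher and 15.1% lower in TR9-MeTA14, 9.78% higher and 2.21% lower in TR15-MeTA5, and 8.21% higher and 0.838% lower in both. Of 3 other S100 proteins that bind annexins, S100A6, a partner of ANXA2 and ANXA11 among others, was higher in both lines. Its signals were 3.22 and 1166 in TR9-MeTA14 and 3.19 and 279 in TR15-MeTA5, at least 59.9-fold and at least 12.2-fold. S100A4 was 3.14-fold higher in TR9-MeTA14 and within 1.03-fold in TR15-MeTA5, and S100A11, the partner of ANXA1, was 1.18-fold and 1.16-fold lower. By its dimmer probe, A_23_P126593, S100A11 was 1.23-fold lower in TR9-MeTA14 and 1.69-fold lower in TR15-MeTA5. The median log2 change over the 3 genes was 1.65 in TR9-MeTA14 and -0.05 in TR15-MeTA5.

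In the plasminogen system, which the ANXA2-S100A10 complex serves, 8 of 10 genes had a fold change in TR9-MeTA14, of which 2 (PLAT and PLAU) were higher and 3 (ENO1, PLG and SERPINE2) lower, and 7 had one in TR15-MeTA5, of which 2 (PLAU and PLAUR) were higher and 0 lower. The medians were 0.26 and 0.30. PLAU, the urokinase activator, was 2.22-fold higher in TR9-MeTA14, with signals of 18.6 and 51.9, and at least 3.60-fold higher in TR15-MeTA5, where it was well above background with tetracycline alone, at 82.2. Over 6 other settings of scaling, background and spots, the number of higher genes in this list ran from 0 to 3 in each line, and that of lower genes from 1 to 3 in TR9-MeTA14. Of 8 genes for membrane proteins or a scaffold bound by S100A10, 0 were higher in either line, and 3 of 6 with a value (ASIC1, TRPV5 and TRPV6) were lower in TR9-MeTA14 and 0 of 5 in TR15-MeTA5, with medians of -0.48 and -0.15. AHNAK, the giant scaffold of the complex, was within 1.04-fold in both lines by its brightest probe. Its other probes differed from each other. A_23_P21363 was 1.56-fold higher in TR9-MeTA14 and 2.27-fold higher in TR15-MeTA5, and A_23_P426636 was 1.06-fold and 1.10-fold lower.

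Genes that work with ANXA1, ANXA7 and ANXA11 showed few changes of 2-fold. The ANXA1 receptors FPR2 and FPR3 were not above background on any array, and FPR1 was above it on 2 arrays, with signals of 19.1, 28.3, 37.1 and 17.8, and was at least 2.85-fold lower with tetracycline in TR15-MeTA5. PLA2G4A, the phospholipase that ANXA1 restrains, was 2.03-fold lower in TR9-MeTA14 and not above background in TR15-MeTA5. With normexp and quantile normalization neither FPR1 nor PLA2G4A passed 2-fold, and PLA2G4A did not in 4 of 6 other settings, that one included. The median over the genes of this list with a value was -0.39 for 2 genes in TR9-MeTA14 and -1.51 for 1 gene in TR15-MeTA5. The 5 genes around ALG-2 (PDCD6) and sorcin (SRI), which bind ANXA7 and ANXA11, were all measured on 4 arrays and 0 of 5 changed by 2-fold in either line, with medians of 0.01 and -0.35. Of 9 membrane repair genes, 2 (CAPN1 and DYSF) were higher and 1 (CAPN2) lower in TR9-MeTA14, and 0 of 7 passed 2-fold in TR15-MeTA5, with medians of 0.18 and 0.15.

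Markers of other cells were read beside these values. Of 7 luminal prostate markers reported here, 7 were well above background on all 4 arrays. By the brightest probe of each, 3 (KLK2, KLK3 and TMPRSS2) were at least 2-fold lower with tetracycline in TR9-MeTA14 and 0 in TR15-MeTA5. The medians were -0.86 and -0.69. In TR15-MeTA5 KLK2 was 1.98-fold lower by that probe and 2.95-fold lower by A_23_P310257. ACP3 was 1.72-fold lower there, and 3.21-fold lower by its dimmer probe, A_24_P37589. The dimmer probes of FOLH1, KRT8 and KRT18 were 1.59-fold, 1.36-fold and 1.59-fold lower there. KLK3, the secretory product known as PSA, was 3.86-fold and 1.62-fold lower, and KRT8, a luminal keratin, was 1.18-fold higher in TR9-MeTA14 and 1.27-fold lower in TR15-MeTA5. Of 4 stromal markers, COL1A2, COL3A1 and PDGFRB were not above background on any array, and COL1A1 gave 475, 505, 36.4 and 97.6. Of 5 leukocyte and endothelial markers CD68, a lysosomal protein, was 5.73-fold and 2.50-fold higher. CD3E was dim, with signals of 24.0, 40.1, 41.2 and 23.9, and was at least 2.55-fold lower in TR15-MeTA5. PTPRC, which defines leukocytes, gave 97.2, 145, 109 and 105 by its brightest probe. Its probes A_33_P3364811 and A_33_P3364821 were not well above background on any array. A_33_P3309526 of PTPRC was well above it on TR9-MeTA14 +Tet alone, at 30.4. In multiples of each array's 75th percentile, the summed level of these luminal markers was 427, 161, 576 and 363, that of the basal list 0.0286, 0.0141, 0.0616 and 0.0579, that of the stromal list 0.796, 0.678, 0.150 and 0.226, and that of the leukocyte and endothelial list 1.12, 2.45, 2.04 and 3.02. The part of these markers in the changes of the annexins was not tested.

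The changes of ANXA1, ANXA2 and S100A10 kept their direction in all 8 other settings tried for scaling, background, spots and bounds. Among these settings, the series table repeats the main values and plain ratios cannot turn a direction, so neither could have changed it. These probes have 1 spot each, so keeping all spots changed only the scaling. For the brighter ANXA2 probe the log2 change lay between 7.81 and 10.79 in TR9-MeTA14 and between 6.76 and 8.89 in TR15-MeTA5. For ANXA1 it lay between 6.55 and 9.17 and between 2.78 and 3.89, and for S100A10 between 2.26 and 5.37 and between 2.05 and 3.91. The lowest of these values came from normexp background correction with quantile normalization in each case.

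**Figure D5:**
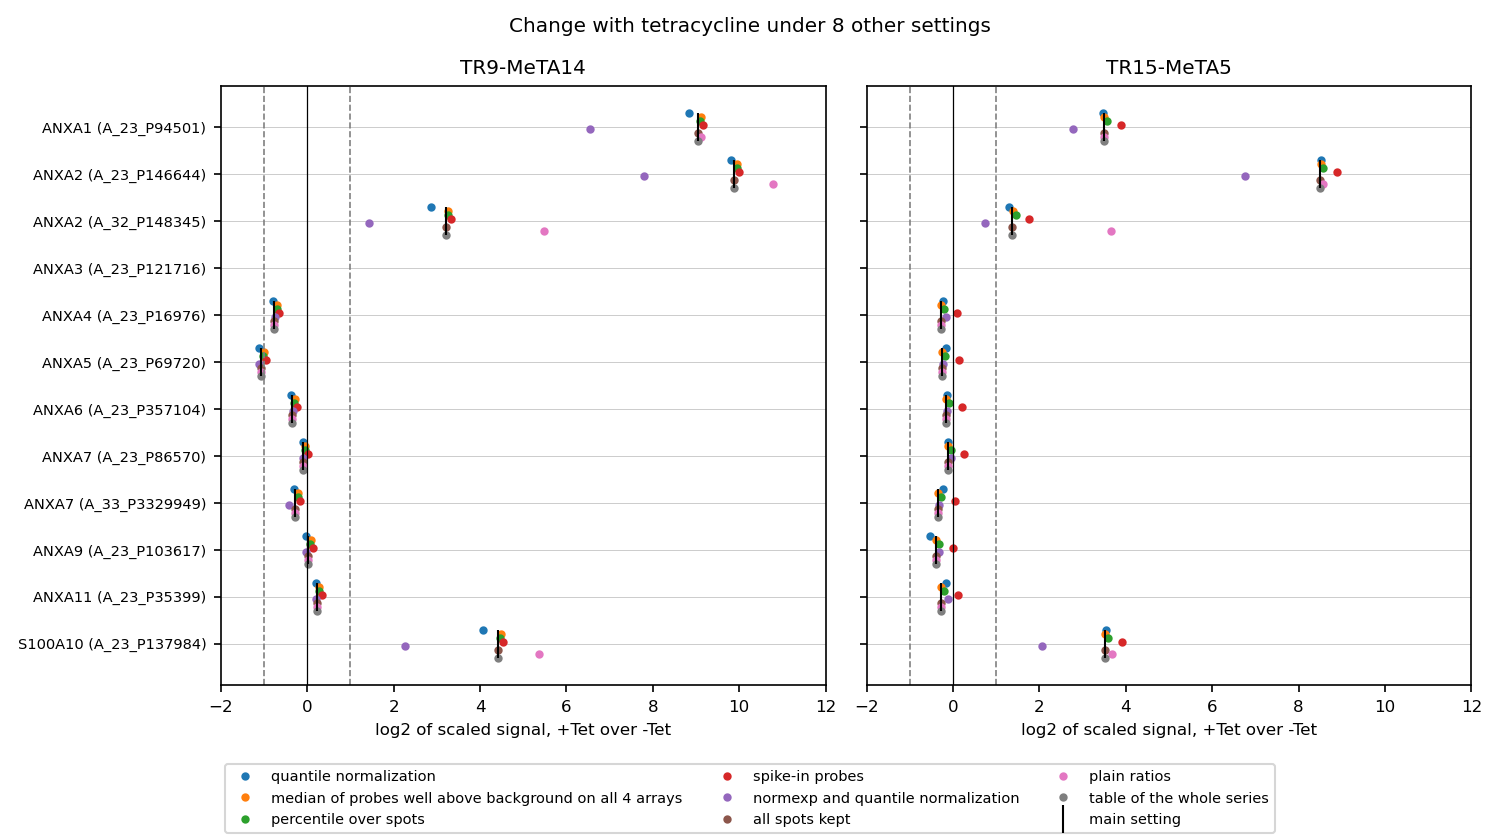
Log2 change with tetracycline of each of the 12 probes in TR9-MeTA14 (left) and TR15-MeTA5 (right) in the main setting (black bar) and in 8 other settings (points). Dashed lines mark 2-fold. The points of ANXA1, the brighter ANXA2 probe and S100A10 stay to the right of 2-fold in both panels, those of ANXA5 lie near 2-fold lower in TR9-MeTA14, and those of the other annexins measured on all 4 arrays lie within 2-fold.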

How the data were processed

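Cy3-labeled cRNA from 4 samples was read on Agilent whole human genome arrays, 1 array per condition, all on 1 slide. The authors used Agilent Feature Extraction (9.5.1 in the submitters' notes, 10.7.3.1 in the file headers), and the deposited intensity of each spot is background-subtracted and not scaled between arrays. The deposited series table repeats these values on all 44495 rows.

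Here, outlier spots (255 to 344 per array) were left out, log2 signals were averaged per probe, and the 75th percentile over non-control probes was subtracted. RefSeq accessions gave 25422 probes 1 gene name each, by a table on GRCh38.p14. As the array was annotated on hg19, no gene coordinates come from that table, and promoter windows carry their own build. Their strand was checked on 2753 overlapping pairs, and all 2753 matched.

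The members and gene lists were chosen with earlier results of these data known. The rule named all member probes, up to 3 genes per list changed the same way in both lines, and the 5 genes most like ANXA2, and other list genes were picked for naming after their values were seen. A change of 2-fold was the cut-off, with no test, because each condition has 1 array and, across the cell lines, because the tetracycline contrast chose ANXA2. Cell lines were compared by limma 3.58.1 (R 4.3.3) with tetracycline as a term, an intensity trend and p-values adjusted by Benjamini-Hochberg across all probes measured well above background by at least 2 arrays, after a check on simulated data. Python 3.11.15, numpy 2.4.6, pandas 2.3.3 and matplotlib 3.10.9 did the rest. Alternatives were quantile normalization, scaling on the median, on spots or on spike-in probes, normexp (offset 50) with quantile normalization, all spots kept, plain ratios, other cut-offs (1.5-fold, 3-fold), the series table, 1 value a gene and, for limma, other filters, no trend and no tetracycline term. Of the list of luminal prostate markers, 7 genes are reported here. The number of arrays limits the precision.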

Additional observations from a re-analysis of the deposited data

Results flagged for a closer look

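ANXA11 was higher with tetracycline in TR9-MeTA14 (0.22 on the log2 scale) and lower in TR15-MeTA5 (-0.27), so that the change in TR15-MeTA5 minus that in TR9-MeTA14 was -0.49. It stood out because the single comparison of each line moved in opposite directions by more than the SD of 0.0873 between replicate spots. That SD comes from other probes, with 10 spots each, and leaves out the spread between cultures. ANXA11 has 1 spot, with a scanner software error of 10.0% on each array. Among all probes compared, its changes lay at percentile 64.5 in TR9-MeTA14 and 38.6 in TR15-MeTA5. The difference between the lines was not tested. With scaling on spike-in probes the change in TR15-MeTA5 was 0.11, the same direction as in TR9-MeTA14.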

How the results depend on the processing

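The numbers of member probes at least 2-fold higher with tetracycline, 4 in each line, and of genes, 3 in each, stayed within 1.5 times of these values in every setting tried. In TR15-MeTA5 the dimmer ANXA2 probe dropped out of the count in some of them. Its log2 change was 0.75 with normexp and quantile normalization, and its bound of at least 2.60-fold did not reach a cut-off of 3-fold. With spike-in scaling, the log2 change of the brighter ANXA2 probe was 10.00 in TR9-MeTA14 and 8.89 in TR15-MeTA5, the number of member probes lower with tetracycline in TR9-MeTA14 was 0 in place of 1, and the numbers lower in TR15-MeTA5 than in TR9-MeTA14 were 5 without and 5 with tetracycline, in place of 1 and 3, with 0 in place of 1 higher with tetracycline. With normexp and quantile normalization, the ANXA2 values were 7.81 and 6.76, and 0 probes in place of 1 were lower in TR15-MeTA5 without tetracycline. With plain ratios ANXA2 was 10.79 in TR9-MeTA14. A cut-off of 1.5-fold gave 2 probes lower with tetracycline in TR9-MeTA14, and one of 3-fold gave 0, and also gave 0 lower without and 0 higher with tetracycline between the lines, by construction. With no filter limma called 58 probes between the lines, in place of 0, of which 0 were members. Its ANXA1 difference of 0.01 was -0.15 with quantile normalization, -0.87 with normexp and quantile normalization and -0.0030 with median scaling, and its ANXA2 difference of 0.48 was -0.32 with normexp and quantile normalization, both averaging in -Tet signals not well above background; none of these passed the threshold. The adjusted p of ANXA9 ran from 0.135 to 0.669. Apart from these, the cause of the shifts was not tested. With tetracycline as a term, the limma fit compares the lines within each condition. Beyond that no paired analysis was possible, because the groups share fewer than 2 replicate numbers, each having 1 array. Leaving out an array would end a comparison or leave limma no residual degree of freedom. Dim signals limit the changes of ANXA2, S100A10 and ANXA1 in TR9-MeTA14 to bounds.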
